A study of Mus musculus with 9 samples.

Results

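The members described here are the small nucleolar RNA (snoRNA) loci and the snoRNA host genes of the Snhg family in glands of the mouse stomach corpus. They were chosen by symbol alone, as every gene named Snora, Snord, Scarna or Snhg with a number, which gave 115 of the 18423 genes in the table. Of these, 31 are box H/ACA loci (Snora), 61 are box C/D loci (Snord), 9 are loci of Cajal body RNAs (Scarna) and 14 are Snhg genes. The table holds FPKM (fragments per kilobase of transcript and scaled to library reads) in 9 libraries, 3 for each of 3 groups. Arid1a_Het glands carried Atp4bCre, Rosa26NICD and Arid1aflox/+. Ctrl glands carried Atp4bCre and Rosa26NICD, so both groups share the Cre and the active Notch fragment, and Ctrl differs from Arid1a_Het in having no floxed Arid1a allele. WT glands are labelled wild type. The age of the mice is not given in the sources used here.

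Cre was driven by the promoter of Atp4b, a subunit of the proton pump of acid-secreting parietal cells, so recombination is directed to that lineage. Glands were scraped from corpus with tumours, or from the matching place of normal stomachs, after EDTA, and all cells of the scraping contribute RNA. The parietal pump gene Atp4a was at 184 to 2557 FPKM in Arid1a_Het libraries, 90.5 to 470.1 FPKM in Ctrl and 1234 to 7584 FPKM in WT libraries. The deleted gene Arid1a was at 8.94, 5.90 and 6.96 FPKM in Arid1a_Het libraries, 14.9, 13.3 and 16.2 FPKM in Ctrl and 13.5, 7.79 and 11.97 FPKM in WT libraries, and Arid1a_Het lay below Ctrl in every library but overlapped WT. Libraries held 22674448 to 29503156 reads. In all 3 Ctrl libraries the summed FPKM of 9 leukocyte genes (427 to 717) lay above WT (54.2 to 107.5), and in Arid1a_Het it was 423 to 843. The mast cell proteases Mcpt1 and Mcpt2 averaged 260 and 266 FPKM in Ctrl, of a mean sum of 619, and 10.9 and 22.4 in WT. Lyz2 went the other way, with means of 25.6 FPKM in Ctrl and 40.8 in WT, so the sum mainly reflects mast cell genes.

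Box C/D snoRNAs guide methylation of the ribose in ribosomal RNA, and box H/ACA snoRNAs guide the change of uridine to pseudouridine. Cajal body RNAs do the same on spliceosomal RNAs. Most mammalian snoRNAs are cut out of introns after the host transcript is spliced, and the mature RNA carries no poly(A) tail. Many hosts encode ribosomal or nucleolar proteins, while the Snhg genes and Gas5 give long non-coding host RNAs. The libraries were made from poly(A) RNA with a strand-specific kit, so a read at a snoRNA locus can come from an unspliced or retained intron of the host as well as from the small RNA itself. The table does not tell these apart, and values below are called reads at the locus.

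Sequences were taken from GENCODE M21 (GRCm38) for the H/ACA locus that was called, C/D loci that were called, among them a pair of C/D loci within 1 host, and 2 loci that differed from the common pattern. Capitals mark the ACA triplet near the 3′ end in Snora sequences, and the C box (TGATGA) and D box (CTGA) in Snord sequences where a script found those letters.
Snora31: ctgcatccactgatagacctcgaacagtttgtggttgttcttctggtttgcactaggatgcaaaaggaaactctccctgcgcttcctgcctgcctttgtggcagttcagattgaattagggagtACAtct
Snora17: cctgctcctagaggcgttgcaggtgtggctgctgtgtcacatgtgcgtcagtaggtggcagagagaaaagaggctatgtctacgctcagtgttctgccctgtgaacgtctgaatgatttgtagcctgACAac
Snord104: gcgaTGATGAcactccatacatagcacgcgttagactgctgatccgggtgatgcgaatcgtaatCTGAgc
Snord69: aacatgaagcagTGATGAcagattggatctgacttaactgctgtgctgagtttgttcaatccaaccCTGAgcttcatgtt
Snord49a: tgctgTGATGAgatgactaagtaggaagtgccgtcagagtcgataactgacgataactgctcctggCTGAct
Snord49b: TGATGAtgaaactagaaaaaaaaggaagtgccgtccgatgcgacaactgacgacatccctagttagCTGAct
Snord118: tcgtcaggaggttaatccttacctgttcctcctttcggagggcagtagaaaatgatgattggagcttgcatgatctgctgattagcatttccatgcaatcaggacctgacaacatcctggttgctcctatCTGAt

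Snora31 lies at chr14:75847905-75848034 (plus strand) in an intron of Tpt1, Snord104 at chr11:106500993-106501062 (plus), and Snord118 at chr11:69073427-69073561 (plus). Snora17 lies at chr2:26639190-26639321 (minus), within the span of Snhg7 at chr2:26637176-26640244 in the RefSeq annotation of GRCm38.p6. Snord49a and Snord49b, both 72 bases long, share a run of 13 bases, aggaagtgccgtc, that starts at base 23 of each. The exact letters TGATGA stood in the first 20 bases of 37 of 61 Snord members (60.7%) and 0 of 31 Snora members, against 21.2% of the 1558 annotated mouse snoRNA and Cajal body RNA transcripts of at least 40 bases. CTGA stood in the last 20 bases of 59 Snord members and 4 Snora members, against 34.8% of those transcripts. ACA stood in the last 10 bases of 29 Snora members and 7 Snord members, against 48.1%. Only the given strand was searched, and a box with other letters was not counted.

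All 115 members had at least 1 read in some library, but the loci were shallow. Over the 9 libraries the Snora loci held 3239 reads, the Snord loci 3655, the Scarna loci 375 and the Snhg genes 28547. The median Snora locus had 77 reads in all libraries together and the median Snord locus 34. At a locus of 70 bases 1 read was worth 0.484 to 0.630 FPKM, so that small FPKM values stand for single reads. The filter on low values (3 or more libraries with an FPKM of 1 or more) was passed by 77 members, of which 19 are Snora, 43 Snord, 3 Scarna and 12 Snhg, and 38 were not tested. A locus could pass through its Ctrl libraries alone, so a share of the members tested is no support for a difference.

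Reads at H/ACA loci were more frequent in Ctrl than in either other group. Summed over the 31 Snora loci they came to 11.6, 4.88 and 9.43 RPM (reads per 1000000 library reads) in Arid1a_Het libraries, 21.9, 18.7 and 31.8 in Ctrl, and 8.05, 4.86 and 11.8 in WT libraries. Every Ctrl library lay above every library of the other groups, which overlapped each other. The mean of Ctrl was 2.94 times that of WT, and the mean of Arid1a_Het was 0.357 times that of Ctrl and 1.05 times that of WT. Loci that are no members had this group order too. Reads summed over 344 microRNA (Mir) loci came to 57.8, 99.2 and 120.2 RPM in Arid1a_Het libraries, 303, 378 and 133 in Ctrl, and 87.3, 110.2 and 124 in WT libraries, with 90.6% of them on 5 loci. Ctrl was again above all others, at 2.53 times WT, and Arid1a_Het was at 0.341 times Ctrl, though Ctrl 3 was here the lowest Ctrl library.

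The C/D loci showed the same order. Their 61 loci summed to 14.8, 3.50 and 7.50 RPM in Arid1a_Het libraries, 25.01, 20.2 and 41.4 in Ctrl, and 8.53, 4.22 and 13.9 in WT libraries. The ratio of means was 3.26 for Ctrl over WT, 0.298 for Arid1a_Het over Ctrl and 0.971 for Arid1a_Het over WT. Without Arid1a_Het 1 the ratio was 0.190 for Arid1a_Het over Ctrl and 0.620 for Arid1a_Het over WT. Reads at C/D loci per read at H/ACA loci were 0.717 to 1.28 in Arid1a_Het libraries, 1.08 to 1.30 in Ctrl and 0.867 to 1.18 in WT libraries. These ranges overlap between the groups, so with 3 libraries a group no difference between the classes was seen beyond the spread.

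Snhg genes had a smaller ratio. They summed to 118, 65.7 and 90.9 RPM in Arid1a_Het libraries, 177, 168 and 208 in Ctrl, and 82.8, 48.2 and 124 in WT libraries, with Ctrl above the others throughout. The means of Ctrl and WT stood at a ratio of 2.17, and those of Arid1a_Het and Ctrl at 0.497. The 9 Cajal body loci summed to only 0.873, 1.80 and 1.24 RPM in Arid1a_Het libraries, 2.21, 1.90 and 1.998 in Ctrl and 1.12, 1.79 and 1.29 in WT libraries. Ctrl was again above the others, by 1.45 times over WT, though the gap between Ctrl 2 and the next library rests on a few reads.

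**Figure D1:**
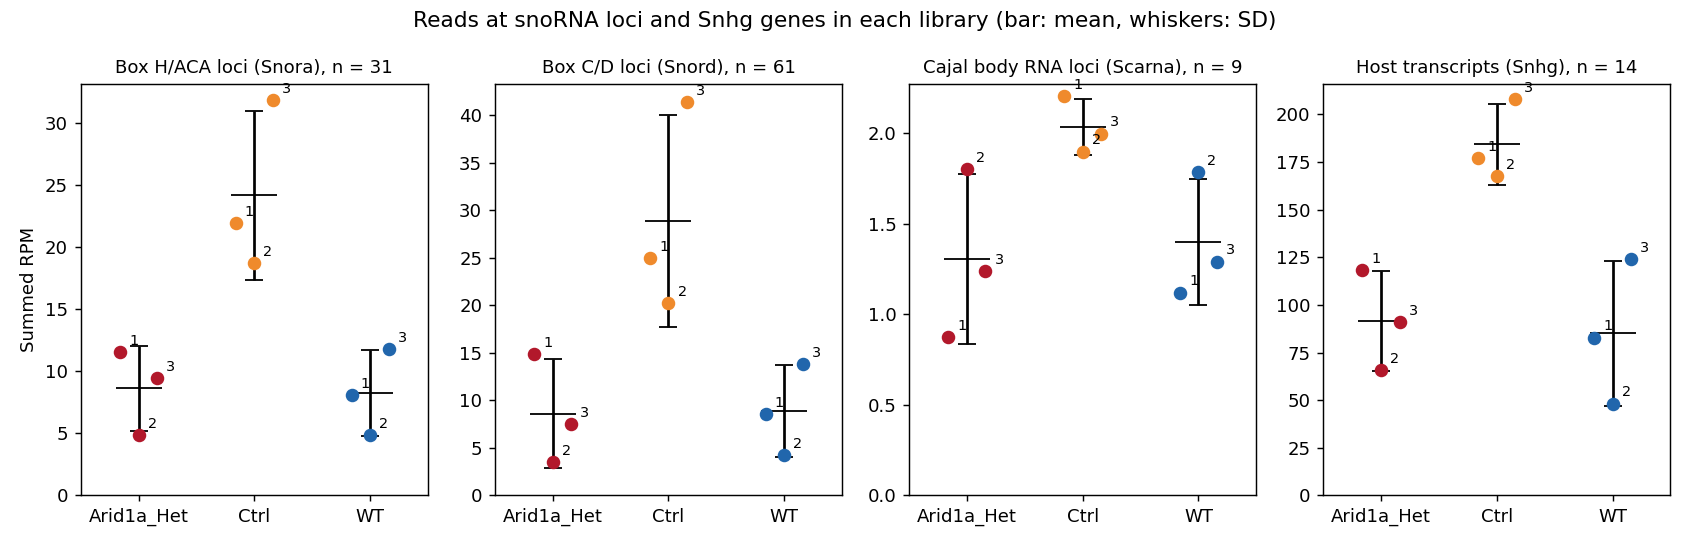
RPM summed over the loci of each class (y axis, from 0) in each library of the 3 groups (x axis). Points are libraries with their replicate number, bars are means and whiskers SD; in all 4 panels the 3 Ctrl libraries lie above the others, and for Snora, Snord and Snhg number 2 is the lowest Arid1a_Het and WT library.

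In Arid1a_Het 2 and WT 2 the H/ACA, C/D and Snhg sums were the lowest of their groups, whereas the Scarna sums were the highest of their groups there. The same 2 libraries had 11.1% (Arid1a_Het 2) and 10.6% (WT 2) of all reads on Pgc, the pepsinogen gene of chief cells, against 0.760% to 4.75% in the other 7 libraries. Ctrl 3 had the highest FPKM of all 9 libraries for 74 of 115 members. Neat1, a long RNA kept in the nucleus, was at 307, 65.9 and 51.3 RPM in Arid1a_Het libraries, 348, 273 and 949 in Ctrl, and 156, 163 and 949 in WT libraries. Arid1a_Het 1, Ctrl 3 and WT 3, each with the highest Snora and Snord sums of its group, were also the highest of their groups in Neat1. Malat1, another nuclear RNA, did not follow this order, with 804, 2141 and 2081 RPM in Arid1a_Het libraries, 2198, 3308 and 2415 in Ctrl, and 2047, 4034 and 1997 in WT libraries. Summed over 7 genes of proliferating cells, FPKM was 76.2, 34.3 and 66.1 in Arid1a_Het libraries, 106.7, 99.5 and 101.7 in Ctrl, and 98.5, 12.4 and 53.9 in WT libraries. Every Ctrl library was above every other, and number 2 was the lowest Arid1a_Het and WT library, as in the Snora, Snord and Snhg sums. The median log2 fold change of these 7 genes was 1.15 in Ctrl against WT and -0.65 in Arid1a_Het against Ctrl, and 0 of them passed in either. The part of the cell mix, of proliferating cells and of nuclear RNA in the snoRNA values was not tested. In bulk RNA of this kind, fewer cells of a type and less RNA per cell cannot be told apart.

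In Ctrl against WT, 15 members rose and 0 fell (limma, adjusted p under 0.05 over 11209 genes). These groups differ in the Cre and the active Notch fragment, and also in cell mix, as the leukocyte sums above show. Glands came from corpus with tumours or from normal stomachs, so the transgenes cannot be told apart from tissue state or cell mix. Over all genes tested, 7.01% were called higher and 3.04% lower. The 15 were 1 Snora, 12 Snord, 0 Scarna and 2 Snhg members. Of the 15, 5 passed the filter only with Ctrl libraries counted and are named below. At an unadjusted limma p under 0.05, 54 members were higher and 0 lower. The share of all genes at that threshold is not given here, so this count cannot be set against all genes. In 54 of the 115 members (47.0%) every Ctrl value was above every WT value, against 26.2% of all 18423 genes, and in 1 member, Scarna10 with 6 reads in all, every Ctrl value was below, against 8.98% of all genes. Over all 115 members without a filter the median log2 fold change was 0.84, against a median of 0.24 over the 11209 genes tested. The sets behind these medians were filtered differently, here and in the other comparisons, so the medians are not fully comparable.

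The count of 15 depended on single libraries and on the fit. With the replicate number as a block it was 44 members (12 Snora, 21 Snord, 0 Scarna and 11 Snhg), against 16.1% of all genes called higher. Same-numbered Ctrl and WT libraries deviated together weakly, but this was seen in these same values and no label gives a pairing. The block was fitted over all 9 libraries, though the numbers do not pair Arid1a_Het with either group. The 44 is thus an alternative count and no support. Adjusted p below are from the fit without the block, and the blocked value is given where it changes the call. Without the filter on low values the count was 4 members, against 3.06% of all genes. It was 2 without Ctrl 1, 6 without Ctrl 2, 2 without Ctrl 3, 3 without WT 2 and 24 without Arid1a_Het 2. Scaling by median ratios, which moved the median of all genes to 0.01, left 7, and limma voom on whole reads left 1, Snora31. For the fits with a library left out, scaled or with voom, the share of all genes called is not given here. Whether members lost more calls than other genes is thus not known.

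Snora31, an H/ACA RNA known in human to guide pseudouridine in ribosomal RNA, was the member with the lowest adjusted p. It had 16, 14 and 22 reads in Arid1a_Het libraries, 51, 76 and 92 in Ctrl, and 13, 11 and 18 in WT libraries. In FPKM these were 4.30, 3.81 and 5.82 in Arid1a_Het libraries, 17.3, 19.8 and 26.2 in Ctrl, and 4.31, 3.21 and 5.96 in WT libraries. The Ctrl libraries stand clear of all others, and Arid1a_Het and WT overlap. Its log2 fold change in Ctrl against WT was 2.02 (SE 0.24) on the log2(FPKM + 1) scale, with a limma adjusted p of 0.00230. It passed under each of the 18 alternatives, with adjusted p between 0.000649 and 0.0273. Its host Tpt1, a translation-related protein gene, did not pass, with a log2 fold change of 0.19 (SE 0.18, limma adjusted p 0.448). Tpt1 held only 4284 reads in 9 libraries and a mean of 7.50 FPKM, and because near-identical copies of it exist its count is uncertain.

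The 12 called C/D loci had fewer reads. Snord104 had 23, 14 and 19 reads in Arid1a_Het libraries, 46, 48 and 75 in Ctrl, and 4, 8 and 27 in WT libraries. Ctrl was above the rest, while WT 3 lay above all Arid1a_Het libraries. Its log2 fold change in Ctrl against WT was 2.17 (SE 0.51, limma adjusted p 0.0301). No host gene of the table holds Snord104 on its strand.

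Snord33, in the ribosomal protein gene Rpl13a, had 3, 1 and 1 reads in Arid1a_Het libraries, 8, 9 and 18 in Ctrl, and 5, 2 and 3 in WT libraries. The log2 fold change in Ctrl against WT was 1.21 (SE 0.32, limma adjusted p 0.0460). Rpl13a has many near-identical copies elsewhere in the genome.

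Snord69, in Gnl3, the gene of the nucleolar protein nucleostemin, had 2, 0 and 1 reads in Arid1a_Het libraries, 9, 6 and 18 in Ctrl, and 2, 1 and 2 in WT libraries, with a log2 fold change of 1.65 (SE 0.36, limma adjusted p 0.0240). Snord57, in Nop56, the gene of a core protein of box C/D particles, had 4, 1 and 2 reads in Arid1a_Het libraries, 9, 8 and 15 in Ctrl, and 5, 1 and 1 in WT libraries. Snord69 and Snord57 passed the filter only with Ctrl libraries counted, so their calls are given as descriptions. The hosts had log2 fold changes of 1.36 for Gnl3 and 0.97 for Nop56, with limma adjusted p of 0.0643 and 0.115, and passed with the replicate block at 0.00974 and 0.0129.

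Snord49a and Snord49b sit in the same host, 2410006H16Rik. Snord49a had 10, 1 and 5 reads in Arid1a_Het libraries, 13, 10 and 32 in Ctrl, and 2, 2 and 3 in WT libraries. Snord49b had 6, 2 and 4 reads in Arid1a_Het libraries, 6, 11 and 8 in Ctrl, and 0, 2 and 3 in WT libraries. In FPKM Ctrl stood above WT in both, and Arid1a_Het 1 lay just above Ctrl 2 for Snord49a. Snord65, in the same host, had a limma adjusted p of 0.146, or 0.0488 with the block, and the loci of 1 host are not independent of each other. The host rose too, with a log2 fold change of 1.15 (SE 0.28, limma adjusted p 0.0334).

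Among the other called C/D loci, Snord100 in the ribosomal protein gene Rps12 had the most reads, with 19, 4 and 10 in Arid1a_Het libraries, 28, 27 and 70 in Ctrl, and 8, 2 and 11 in WT libraries. Its host rose with it (log2 fold change 1.23, SE 0.29, limma adjusted p 0.0309). Rps12 held only 662 reads over 9 libraries and Snord100 179. Snord100 overlaps an annotated exon, so reads may be shared and the host call is not independent of the locus. Snord52 in 1110038B12Rik, Snord87 in Snhg6, Snord88c in 2410002F23Rik and Snord45b in Rabggtb had 25 to 58 reads over all libraries. Their limma adjusted p in Ctrl against WT ran from 0.0333 (Snord52) to 0.0435 (Snord88c), and none of these 4 hosts passed without the block. With it 1110038B12Rik, 2410002F23Rik and Snhg6 passed (limma adjusted p 0.0172 to 0.0258), and Rabggtb did not. Each of the 12 C/D loci was lost under at least 1 alternative. Snord45b passed the filter only with Ctrl libraries counted, so its call is given as a description.

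**Figure D2:**
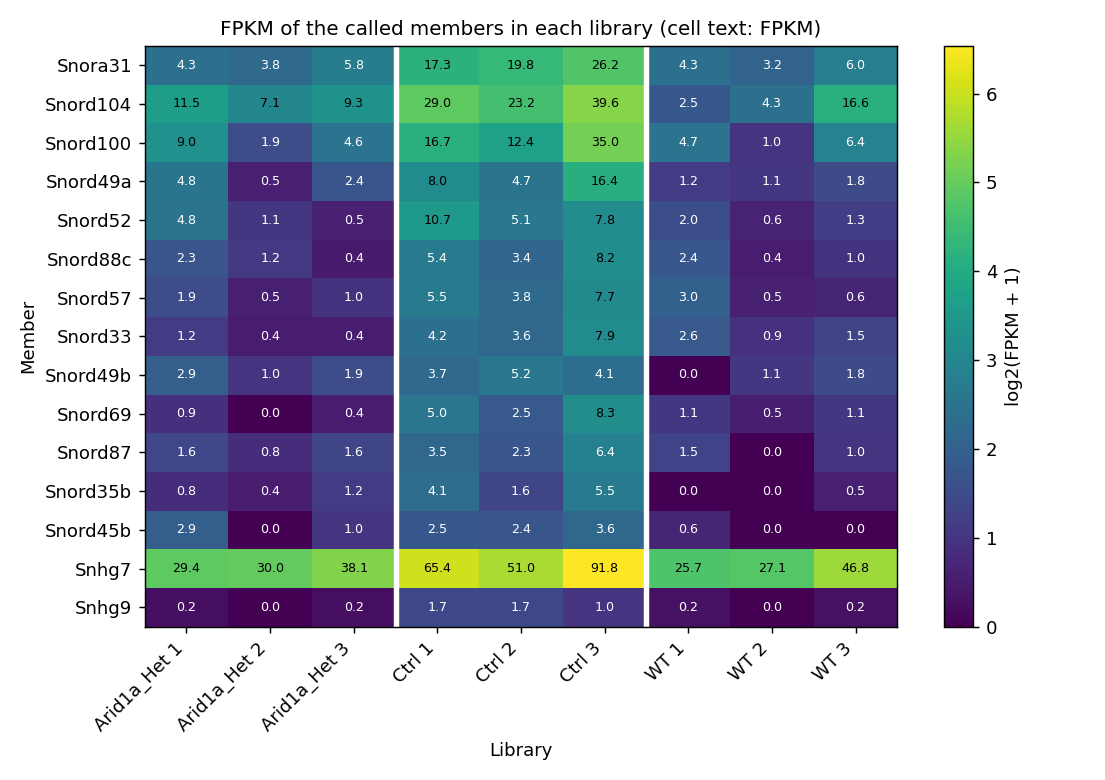
FPKM of the 15 members called in Ctrl against WT (rows) in the 9 libraries (columns), coloured on the log2(FPKM + 1) scale with the FPKM written in each cell. In each row the 3 Ctrl values lie above the 3 WT values, and for Snora31 the Ctrl libraries are at 17.3 to 26.2 FPKM and the others at 3.21 to 5.96.

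Loci with more reads did not always pass without the block. Snord96a, the C/D locus with the most reads, had 49, 7 and 12 reads in Arid1a_Het libraries, 69, 82 and 132 in Ctrl, and 26, 1 and 49 in WT libraries. The log2 fold change of 2.38 (SE 0.99) had a limma adjusted p of 0.135, or 0.0525 with the block, and the WT libraries spanned 0.475 to 26.04 FPKM. Snord22, which lies in Snhg1, had 49, 3 and 27 reads in Arid1a_Het libraries, 81, 64 and 127 in Ctrl, and 21, 9 and 34 in WT libraries (log2 fold change 1.91, SE 0.72, limma adjusted p 0.109, or 0.0146 with the block). The gene model of Snhg1 in the table is 2969 bases long and covers this locus. Snora65, in Rpl12, had 32, 4 and 17 reads in Arid1a_Het libraries, 52, 72 and 93 in Ctrl, and 13, 8 and 27 in WT libraries (log2 fold change 1.95, SE 0.54, limma adjusted p 0.0522, or 0.0150 with the block). In these 3 loci the Ctrl libraries were again the highest 3, and the spread within Arid1a_Het and WT was wide.

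Other loci with many reads repeated this. Snora70, in Rpl10, had 33, 7 and 15 reads in Arid1a_Het libraries, 35, 36 and 67 in Ctrl, and 17, 11 and 26 in WT libraries (log2 fold change 1.10, SE 0.46, limma adjusted p 0.135, or 0.0415 with the block). Snord12 had 16, 5 and 12 reads in Arid1a_Het libraries, 24, 38 and 53 in Ctrl, and 4, 1 and 23 in WT libraries (log2 fold change 2.16, SE 0.67, limma adjusted p 0.0707, or 0.0214 with the block). In both, Ctrl 3 was the highest library and Arid1a_Het 2 and WT 2 were the lowest of their groups.

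A few loci had another order. Snora17, the H/ACA locus with the most reads, had 21, 56 and 86 reads in Arid1a_Het libraries, 58, 54 and 56 in Ctrl, and 19, 52 and 19 in WT libraries. Arid1a_Het 3 was the highest, and the libraries Arid1a_Het 2 and WT 2, low in most other loci, were as high as Ctrl. Its log2 fold change in Ctrl against WT was 0.87 (SE 0.46, limma adjusted p 0.210). Snhg7, whose RefSeq span holds Snora17, had 117, 118 and 154 reads in Arid1a_Het libraries, 206, 209 and 345 in Ctrl, and 83, 99 and 151 in WT libraries, and so did not share that order.

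Snord118, the U8 snoRNA, is known in vertebrates to have a promoter of its own and to act in ribosomal RNA cleavage. It had 6, 12 and 6 reads in Arid1a_Het libraries, 6, 1 and 3 in Ctrl, and 2, 14 and 3 in WT libraries. Its highest libraries were WT 2 and Arid1a_Het 2, and it was not called in any comparison. Scarna17 and Scarna9 had 24 and 15 reads in Arid1a_Het 2 and 18 and 13 reads in WT 2, in the upper part of their ranges of 5 to 24 and 4 to 18 reads. Scarna2 had 5, 12 and 15 reads in Arid1a_Het libraries, 19, 17 and 19 in Ctrl, and 8, 9 and 17 in WT libraries. Its limma adjusted p in Ctrl against WT was 0.301.

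Most loci could be set beside the gene that holds them. A host on the same strand was found in the table for 81 of the 92 Snora and Snord loci, in 58 genes, and 39 of these loci overlap an annotated exon of a longer gene on that strand, such as a transcript that keeps the intron. At 69 of the 81 loci the mean FPKM was below that of the host, and the median locus stood at 7.33% of its host. The 31 loci in 22 ribosomal protein genes carry the doubt about near-identical copies.

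The loci differed between Ctrl and WT by more than their hosts did. Per 1000 host reads, Snora loci had 3.26, 0.974 and 1.66 reads in Arid1a_Het libraries, 4.96, 4.39 and 8.10 in Ctrl, and 2.25, 1.37 and 3.36 in WT libraries. For Snord loci these were 1.38, 0.292 and 0.577 in Arid1a_Het libraries, 1.95, 1.45 and 3.81 in Ctrl, and 0.801, 0.545 and 1.16 in WT libraries. Every Ctrl library exceeded every other library in both classes. The ratio of Ctrl to WT means was 2.50 for Snora and 2.88 for Snord loci per host read, while the summed hosts themselves stood at 1.34 and 1.25. These sums are weighted to hosts with many reads, such as Eef2 with 559618 reads over 9 libraries and 19 at its locus Snord37. Some hosts of loci with many reads had larger ratios, 2.69 for Snhg1 (Snord22 3.85) and 4.29 for Rpl12 (Snora65 4.04). Those loci overlap an annotated exon, so reads may be shared. The gap between the summed ratios is thus not the gap at each locus. Without Arid1a_Het 1, the Snord ratio per host read was 0.181 for Arid1a_Het over Ctrl and 0.521 for Arid1a_Het over WT, against 0.313 and 0.900 with it. With hosts that are not ribosomal protein genes the Ctrl to WT ratio was 2.59 for Snora and 3.24 for Snord loci. With ribosomal protein hosts it was 2.60 for Snora and 2.45 for Snord loci, and for these Snord loci the groups overlapped, with Ctrl 2 at 1.458 and WT 3 at 1.497 reads per 1000 host reads.

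The same held locus by locus. At 59 of the 75 loci with a value, the ratio of Ctrl to WT means was larger for the locus than for the host, with medians of 3.204 for loci and 1.60 for hosts. Of 57 hosts tested, 6 rose (Rps12, Rpl10, Rpl12, Zbed3, Snhg9 and 2410006H16Rik) and 0 fell in Ctrl against WT. Over all genes tested, 7.01% were called higher and 3.04% lower. Snhg9 passed the filter through its Ctrl libraries alone, so its call could only favour Ctrl. Rps12, Rpl10 and Rpl12 held only 662, 887 and 1012 reads over 9 libraries. Their loci Snora33 and Snord100 (Rps12), Snora70 (Rpl10) and Snora65 (Rpl12) had 150, 179, 247 and 318 reads. All of these loci overlap an annotated exon, so host and locus may share reads and these host calls may not be independent of the loci. With the block 19 hosts rose and 0 fell, against 16.1% of all genes called higher. In Arid1a_Het against Ctrl, the locus had the larger ratio in 11 of 79 loci, with medians of 0.310 for loci and 0.796 for hosts. The shares of loci with the larger ratio use the Ctrl libraries in both comparisons and are not independent of each other. Over all Snora and Snord members, loci that overlap no annotated exon of another gene on their strand had a Ctrl to WT ratio in RPM of 2.71 (13 Snora) and 2.78 (35 Snord), and those that overlap one 3.05 (18 Snora) and 3.61 (26 Snord).

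**Figure D3:**
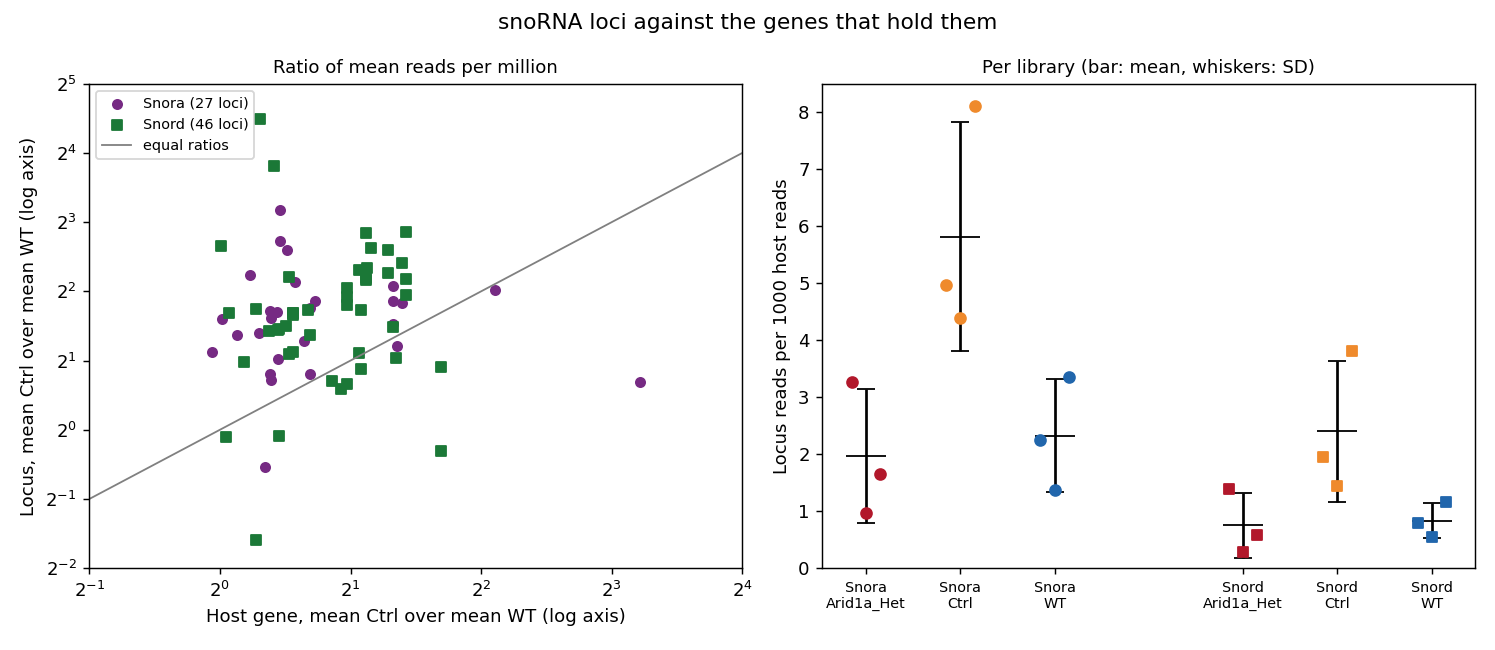
Left, ratio of the Ctrl mean to the WT mean in RPM for 73 Snora and Snord loci with a ratio above 0 (y axis) against that of their host gene (x axis), both on log axes; 59 points lie above the line of equal ratios. Right, locus reads per 1000 host reads in each library, with means (bars) and SD (whiskers); the Ctrl libraries are the highest in both classes.

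Of the 14 Snhg genes, Snhg7 and Snhg9 (14.3%) rose in Ctrl against WT and none fell, where 7.01% of all genes tested were called higher. With the replicate block 11 (78.6%) rose and 0 fell, against 16.1% of all genes called higher. Snhg7 was at 29.4, 30.0 and 38.1 FPKM in Arid1a_Het libraries, 65.4, 51.0 and 91.8 FPKM in Ctrl, and 25.7, 27.1 and 46.8 FPKM in WT libraries, with a log2 fold change of 1.05 (SE 0.27, limma adjusted p 0.0413). The gene model behind its FPKM is 139 bases long, so its level cannot be set against that of other genes. Snhg9 had 1, 0 and 1 reads in Arid1a_Het libraries, 7, 9 and 5 in Ctrl, and 1, 0 and 1 in WT libraries. The log2 fold change of 1.08 (SE 0.19, limma adjusted p 0.0115) rests on 25 reads over 9 libraries. Snhg9 was the 1 member that passed the filter through the Ctrl libraries alone, so its call could only favour Ctrl and is given as a description. Another 4 of the 15 called members, Snord35b, Snord45b, Snord57 and Snord69, needed at least 1 Ctrl library to pass. Their calls are given as descriptions too.

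Of the other 10 tested Snhg genes, 9 passed with the block and not without it. Snhg1 was at 6.84, 2.20 and 3.93 FPKM in Arid1a_Het libraries, 10.8, 9.81 and 13.1 FPKM in Ctrl, and 4.84, 1.04 and 6.64 FPKM in WT libraries (log2 fold change 1.43, SE 0.48, limma adjusted p 0.0834, or 0.0209 with the block). Snhg12, which holds Snora16a, Snora44, Snora61 and Snord99, was at 4.68, 1.56 and 1.95 FPKM in Arid1a_Het libraries, 8.001, 8.21 and 8.24 FPKM in Ctrl, and 3.55, 1.17 and 5.06 FPKM in WT libraries (limma adjusted p 0.0753, or 0.0349 with the block). Its 4 loci together had 86, 10 and 20 reads in Arid1a_Het libraries, 96, 102 and 144 in Ctrl, and 34, 4 and 54 in WT libraries. Snora61 had 24, 0 and 7 of these reads in Arid1a_Het libraries, 37, 37 and 57 in Ctrl, and 11, 0 and 21 in WT libraries. Host and loci thus had the same highest and lowest libraries within Arid1a_Het and WT. All 4 loci overlap an annotated exon, and whether their reads were also counted for the host is not known, so host and loci may share reads.

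Snhg3, Snhg4, Snhg5 and Snhg20 also had every Ctrl value above every WT value, with limma adjusted p from 0.0851 (Snhg20) to 0.107 (Snhg3), and from 0.0240 (Snhg5) to 0.0457 (Snhg4) with the block. For Snhg17 Ctrl 2 and WT 3 were level at 1.32 FPKM (limma adjusted p 0.112, or 0.0313 with the block). Snhg8 was at 20.3, 19.3 and 26.3 FPKM in Arid1a_Het libraries, 25.6, 31.5 and 24.8 FPKM in Ctrl, and 18.5, 14.2 and 20.3 FPKM in WT libraries (log2 fold change 0.61, SE 0.18, limma adjusted p 0.0648, or 0.0495 with the block). Snhg18 was at 8.93, 11.7 and 10.02 FPKM in Arid1a_Het libraries, 13.6, 15.01 and 8.22 FPKM in Ctrl, and 5.80, 7.39 and 9.88 FPKM in WT libraries. Snhg18 did not pass in either fit. For Snhg8 and Snhg18 the Arid1a_Het range overlapped that of Ctrl. Gas5, a host outside the Snhg names that holds Snord47, was at 29.4, 15.1 and 23.8 FPKM in Arid1a_Het libraries, 45.3, 45.5 and 52.2 FPKM in Ctrl, and 25.1, 9.35 and 31.0 FPKM in WT libraries (log2 fold change 1.24, SE 0.39, limma adjusted p 0.0723, or 0.0195 with the block). Snord47 itself had 14, 2 and 10 reads in Arid1a_Het libraries, 30, 25 and 68 in Ctrl, and 7, 3 and 12 in WT libraries. Its highest library was Ctrl 3, as for Gas5, but Snord47 overlaps an annotated exon, so reads may be shared.

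Snhg6 had an order of its own, at 10.4, 4.63 and 8.16 FPKM in Arid1a_Het libraries, 8.97, 10.7 and 9.52 FPKM in Ctrl, and 5.22, 3.38 and 5.33 FPKM in WT libraries. Arid1a_Het 1 lay within the Ctrl range. Its log2 fold change in Ctrl against WT was 0.94 (SE 0.26, limma adjusted p 0.0522, or 0.0258 with the block).

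**Figure D4:**
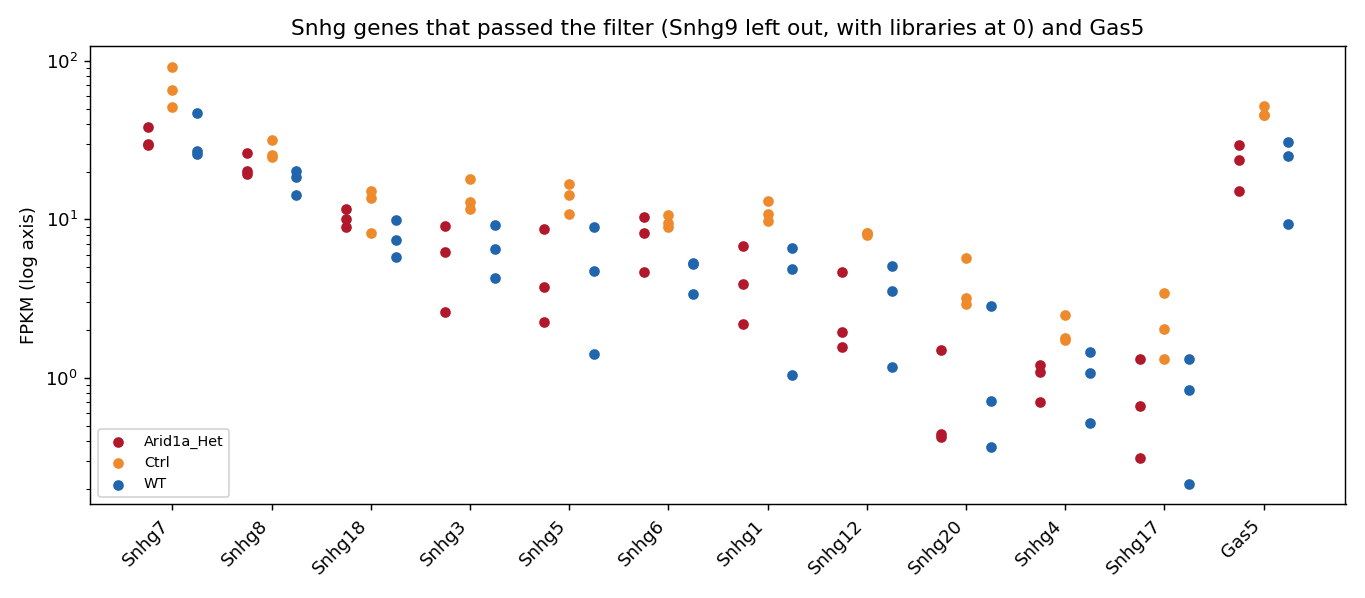
FPKM (y axis, log axis) of 11 Snhg genes that passed the filter and of Gas5 (x axis) in the 3 libraries of each group (points). Snhg9, with libraries at 0, is left out; for Snhg1, Snhg12 and Gas5 the 3 Ctrl points lie above all others, and for Snhg6, Snhg8 and Snhg18 Arid1a_Het and Ctrl overlap.

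In Arid1a_Het against Ctrl, which sets the floxed Arid1a allele against the Notch background alone, 0 members were called higher and 0 lower. Over all genes 0.0% were called higher and 0.00892% lower, that is 1 gene. At an unadjusted limma p under 0.05, 0 members were higher and 50 lower, again without a share of all genes to set beside it. In 51 of 115 members (44.3%) every Arid1a_Het value was below every Ctrl value, against 17.6% of all genes. The median log2 fold change was -0.81 over the 115 members without a filter, against -0.16 over the genes tested.

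The lowest adjusted p of a member was that of Snora31, at 0.0703 (limma, log2 fold change -1.97, SE 0.24), with Arid1a_Het below Ctrl in all 9 pairs of libraries. It passed under 7 of 18 alternatives, with adjusted p from 0.00628 to 0.408 over all 18. Snord69 (log2 fold change -2.07, SE 0.36), Snord33 (-1.86, SE 0.32) and Snhg9 (-1.12, SE 0.19) followed, each with a limma adjusted p of 0.223. The values of the 15 members that rose in Ctrl against WT use the same Ctrl libraries here, so a high Ctrl library enters both comparisons.

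**Figure D5:**
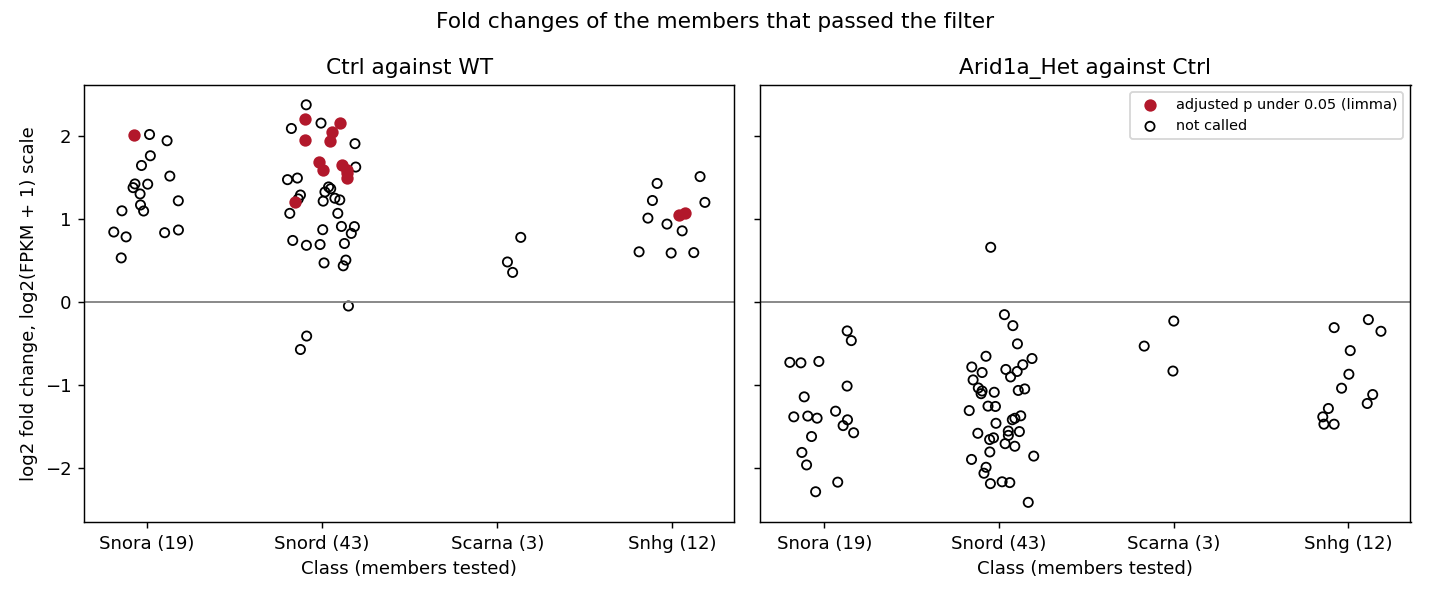
log2 fold change on the log2(FPKM + 1) scale (y axis) of the 77 members that passed the filter, by class (x axis), in Ctrl against WT (left) and Arid1a_Het against Ctrl (right). Filled points are those past the limma threshold, 15 on the left and 0 on the right; both panels share the Ctrl libraries.

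In Arid1a_Het against WT, 0 members were called higher and 0 lower, where 2.06% of all genes were called higher and 0.687% lower. At an unadjusted limma p under 0.05, 0 members were higher and 1, Snord89, was lower, with an adjusted p of 0.0866. No share of all genes is given for this either. Snord89 had 1, 0 and 1 reads in Arid1a_Het and 2, 4 and 4 reads in WT libraries. Every Arid1a_Het value was below every WT value in Snord89, Snora34 and Snhg11, which is 3 of 115 members, against 8.36% of all genes lower in this way. The median log2 fold change was -0.03 over the members and 0.02 over the genes tested. The SD of the Snora and Snord sums was 3.41 and 5.75 RPM in Arid1a_Het, and 3.45 and 4.83 RPM in WT.

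The genes that build and trim snoRNA particles were read from fixed lists. Of 4 core proteins of H/ACA particles, 3 of C/D particles, 13 assembly and transport factors, 10 release and trimming factors and 10 factors of nonsense-mediated decay, a pathway known to degrade spliced Gas5 and some other host RNAs, 0 passed in any of the 3 comparisons without the block. With it, 1 H/ACA protein (Gar1), 1 C/D protein (Nop56), 2 assembly factors, 0 trimming factors and 2 decay factors rose in Ctrl against WT and none fell. In that fit 16.1% of all genes were called higher. The median log2 fold change in Ctrl against WT was 0.60, 0.68, 0.47, 0.36 and 0.40 for these lists in that order, against 0.24 over all genes tested. Gar1, an H/ACA core protein, averaged 21.1 ± 5.44 FPKM in Arid1a_Het libraries, 26.6 ± 0.933 FPKM in Ctrl and 14.9 ± 5.93 FPKM in WT libraries (SD, n = 3 each). Nop58, a C/D core protein, averaged 9.87 ± 2.62 FPKM in Arid1a_Het libraries, 12.05 ± 0.395 FPKM in Ctrl and 7.47 ± 2.67 FPKM in WT libraries (SD, n = 3 each). For Gar1 the limma adjusted p in Ctrl against WT was 0.0856, or 0.0362 with the block, and for Nop58 it was 0.121, or 0.0505 with the block. The one tested histone gene, 2 nuclear-retained RNAs, 3 short RNAs without a tail and 4 other hosts on the fixed lists also gave 0 calls in each comparison without the block, and with it 3 of those 4 hosts rose in Ctrl against WT.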

How the data were processed

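Poly(A) RNA of corpus glands was sequenced in 9 libraries, made with a strand-specific mRNA kit, per the labels' protocols. The authors deposited 1 table of FPKM values for 18423 genes. STAR 2.4.2a and the builds GRCm38 and mm10 are named in the submitters' processing notes. The counting tool, its annotation and its treatment of reads with several matches are not given in the sources used here, so genes with near-identical copies, loci inside other gene models and hosts are uncertain.

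Whole reads were worked out from the deposited FPKM steps, since 1 read adds a fixed amount per gene and library. For 18421 of 18423 genes every library came out whole within 0.01. Hosts, exon overlaps, positions and sequences came from GENCODE M21 on GRCm38.

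Differences were tested with limma 3.58.1 under R 4.3.3, by lmFit and a trended eBayes, on log2(FPKM + 1) in a joint fit of the 9 libraries with a mean for each group. A gene entered the test with 3 or more libraries at an FPKM of 1 or more, which 11209 did, with Benjamini-Hochberg adjustment over all of them and a threshold of 0.05. A fold change on this scale understates low genes. Class sums and reads per host read are values without a test. Whether each library is a separate animal is not stated, so the p-values reflect only how far these libraries scatter, which may be technical.

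Same-numbered Ctrl and WT libraries deviated together weakly, with correlations of 0.207, 0.336 and 0.138. This is at most a weak sign of pairing by number, and no label gives one. The tests were nevertheless fitted without a block, and the blocked value is printed where it changes a call. The block spans all 9 libraries, also Arid1a_Het, whose numbers do not pair with the other groups, so blocked values are an alternative only. Members named were those called in a comparison, the 5 with the most reads in each class, the Snhg genes that passed the filter, the hosts of called members and genes of fixed lists. Some of these are not reported here, and a few with another order were chosen after their values were seen. The members and lists were chosen with earlier results of these data known. Alternatives were a pseudocount of 0.1, no filter, an FPKM of at least 5, at least 10 reads, median-ratio scaling, only the 2 groups, the block, voom on whole reads and each library left out. Hosts without ribosomal protein genes and a total without Pgc were added after seeing the data. Reads and positions were computed in Python 3.11.15 (pandas 2.3.3, numpy 2.4.6) and plots drawn in matplotlib 3.10.9.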

Additional observations from a re-analysis of the deposited data

How the results depend on the processing

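The summed RPM of the 4 classes and the reads per host read moved by less than the spread between libraries in all 129 and 54 alternative values, though without Arid1a_Het 1 the Snord ratios of Arid1a_Het to Ctrl and to WT were more than 1.5 times lower. Counts of calls moved more. For Ctrl against WT the 15 members called higher became 6 with a pseudocount of 0.1, 4 without a filter, 5 with an FPKM of at least 5, 5 with at least 10 reads, 7 with median-ratio scaling, 44 with the replicate block, 1 with voom on whole reads and 4 without Ctrl 1 and Arid1a_Het 3. Leaving out 1 library gave 2 to 24. Among these alternatives the share of all genes called is given above only for no filter and the block. The other counts cannot be set against all genes. For Arid1a_Het against Ctrl the 0 members called lower became 1, Snora31, with an FPKM of at least 5, with at least 10 reads, with only the 2 groups, with the replicate block and without Ctrl 1 and Arid1a_Het 3, and 0 to 1 when 1 library was left out. For Arid1a_Het against WT the 0 members called higher became 0 to 1 (Snhg6, without Arid1a_Het 2). The numbers do not pair Arid1a_Het with Ctrl (correlations -0.151, 0.467 and -0.020) or with WT (0.252, 0.563 and -0.279). The block is only an alternative in each comparison. The cause of these moves was not tested.

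Of 46 named genes, only 1 changed sign in this comparison: the log2 fold change of Tpt1, Ctrl against WT, was -0.040 with median-ratio scaling. In Arid1a_Het against Ctrl 4 genes and in Arid1a_Het against WT 30 genes changed sign under at least 1 alternative, and none of the fold changes that did so is given. Depth limits the loci: 38 of 115 members were not tested, and at 34 reads for the median Snord locus over 9 libraries a change in a single locus is often not detectable.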
